A study of Marchantia polymorpha and Arabidopsis thaliana and Oryza sativa Japonica Group with 80 samples.

Results

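The late embryogenesis abundant (LEA) and EM seed-type genes of Arabidopsis were followed over hours of salt and across genotypes. The set has 8 members, taken by their AGI gene identifiers and not by any measured value: LEA14 (AT1G01470), LEA4-5 (AT5G06760), LEA4-1 (AT1G32560), LEA18 (AT2G35300), LEA7 (AT1G52690), ECP63 (AT2G36640), EM1 (AT3G51810) and EM6 (AT2G40170). All 8 are among the 34218 genes of the mutant experiment, and 6 are among the 24060 genes of the time course, where LEA7 and EM1 were not analysed here. Every member present passed the filter on low counts, in 15407 genes of the time course and 19316 of the mutant experiment.

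The series holds 80 samples, of which 34 RNA libraries of whole Arabidopsis seedlings were used. The seedlings were 7 days old and grown in liquid MS medium of reduced strength under continuous light, and the salt was 100 mM NaCl. The time course has wild-type Col-0 seedlings at 0, 1, 3 and 6 h and again at 12, 24, 48 and 72 h, with 2 libraries at each time. The mutant experiment has seedlings of a line labelled wrky25/33, a knockout of the transcription factor genes WRKY25 and WRKY33 per its label, and Col-0 seedlings, each at 0, 2 and 24 h with 3 libraries per group. No group after 0 h was left without salt, so the salt cannot be told apart from hours in fresh medium, handling or growth. The labels do not say that the libraries of a group came from separate cultures, so p-values measure the spread between these libraries, which may be technical.

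LEA proteins accumulate late in embryo development, when the seed dries, and most of them are hydrophilic and largely unfolded in solution. They are known for protecting enzymes and membranes during water loss, and many of their genes are also switched on in vegetative tissue by drought, salt and the hormone abscisic acid (ABA). The EM genes are classic targets of ABI5, a bZIP transcription factor of ABA response in seeds and young seedlings, and of ABI3, a seed regulator with a B3 domain. Transcripts of this kind are normally lost soon after germination.

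Total counts per library were 18404537 to 24148375 in the time course and 17431071 to 41887006 in the mutant experiment. Levels are given as CPM, the counts of a gene scaled to the total of its library and, by TMM, to its composition. Gene lengths were not used here, so levels are compared between samples and not between genes. The targeted genes did not follow the mutant label. In the 0 h libraries WRKY25 had 44.5, 33.2 and 42.0 CPM in the labelled line, against 41.2, 24.7 and 41.1 CPM in Col-0. WRKY33 had 44.5, 30.7 and 164 CPM in the labelled line, against 30.0, 20.5 and 229 CPM in Col-0. Neither gene was called different at 0, 2 or 24 h by edgeR's quasi-likelihood test (adjusted p = 0.9997 to 1), so the mutant group is named below only as the line labelled wrky25/33. Shoot markers (RBCS1A, LHCB1.1, RCA and related genes of photosynthesis) summed to 26989 to 59213 CPM in the time course and 18085 to 40863 CPM in the mutant experiment. As a sum, root markers (CASP1, COBL9, EXPA7 and TIP2;3, of which 3 of 4 are in the course table) were highest at the early times. Single markers went both ways in the course. Their log2 changes from 0 h ran from -1.47 to 1.79 at 1 h, -1.78 to 0.83 at 3 h and -0.85 to 1.03 at 6 h. Both libraries lay below both of 0 h for 1 marker at 1 h, 1 at 3 h and 2 at 6 h. In the course the markers summed to 15.5 and 25.6 CPM at 0 h, 24.8 to 36.8 CPM over 1 to 6 h and 8.52 and 9.02 CPM at 24 h. In the mutant experiment they summed to 3.12 to 3.77 CPM at 0 h, 9.21 to 14.4 CPM at 2 h and 1.65 to 2.81 CPM at 24 h in the labelled line, and to 1.88 to 6.09, 8.46 to 9.89 and 0.43 to 1.60 CPM in Col-0. CASP1 and TIP2;3 made up most of these sums at 2 h, while COBL9 and EXPA7 had at most 0.24 and 0.35 CPM in any mutant experiment library and COBL9 was at 0 in all 6 of 24 h. The part of the root markers in the members' changes at the early times was not tested.

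The time course asks when each transcript is high after the start of salt. LEA14 and LEA4-5 rose at 1 and 3 h and were lower again at 24 h, while LEA4-1, LEA18, ECP63 and EM6 did not pass the test at any time. LEA14, an atypical LEA protein with a folded structure, had 44.1 and 56.6 CPM at 0 h, 446 and 664 CPM at 1 h, 307 and 521 CPM at 3 h, 133 and 95.7 CPM at 6 h, 63.1 and 88.2 CPM at 12 h, 56.3 and 54.8 CPM at 24 h, 55.3 and 59.5 CPM at 48 h, and 81.5 and 110 CPM at 72 h. The libraries of 1 and 3 h stand well above all others. In whole seedlings, more RNA per cell and more cells of the type that makes it cannot be told apart, for this and every result below. Against 0 h, LEA14 was higher by 3.46 ± 0.31 (SE, log2) at 1 h and 3.04 ± 0.30 at 3 h (adjusted p = 1.558e-05 and 4.863e-05, edgeR's quasi-likelihood test with Benjamini-Hochberg adjustment over all genes tested). It was also called higher by 1.18 ± 0.29 at 6 h and 0.93 ± 0.28 at 72 h (edgeR adjusted p = 0.02916 and 0.0324). The 6 h call ended without any 1 of its 4 libraries (edgeR adjusted p = 0.05149 to 0.2435), and the 72 h call ended without 0 h replicate 1, 0 h replicate 2 or 72 h replicate 2 (0.169, 0.08134 and 0.1975). At 24 h LEA14 was lower than at 3 h by 2.90 ± 0.30 on the log2 scale (a log2 change of -2.90, edgeR adjusted p = 5.05e-05).

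LEA4-5, a small LEA protein that protects enzymes during drying in vitro, had 26.3 and 3.10 CPM at 0 h, 167 and 146 CPM at 1 h, 139 and 227 CPM at 3 h, 36.5 and 31.2 CPM at 6 h, 14.3 and 38.8 CPM at 12 h, 24.1 and 33.3 CPM at 24 h, 23.9 and 4.72 CPM at 48 h, and 32.8 and 15.3 CPM at 72 h. Its 1 and 3 h libraries stand apart from all others, but its 0 h libraries differ by 8.51-fold. LEA4-5 was higher by 3.40 ± 0.87 (log2) at 1 h and 3.63 ± 0.88 at 3 h (edgeR adjusted p = 0.01952 and 0.01466). Without 0 h replicate 2, the low one, the log2 values were 2.58 and 2.81 and neither was called (edgeR adjusted p = 0.1006 and 0.07404). The calls also ended without 1 h replicate 1 (0.05171) or 3 h replicate 2 (0.06197), and when the libraries of the contrast alone were fitted (0.08767 and 0.06007). At 24 h LEA4-5 was lower than at 3 h, with a log2 change of -2.67 ± 0.83 (edgeR adjusted p = 0.032). Leaving out 3 h replicate 2, 24 h replicate 1 or 24 h replicate 2 took it past the threshold (0.1239, 0.1754 and 0.1206).

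These calls make 2 of 6 members at 1 h and 2 of 6 at 3 h, where 8.74% and 8.5% of all genes tested were called higher. At 6 h the count was 1 of 6 (4.26% of all genes) and at 72 h 1 of 6 (12.3%). At 12, 24 and 48 h it was 0 of 6 in edgeR and in DESeq2, with 0 at an unadjusted p below 0.05, against 2.6%, 6.45% and 10.4% of all genes. A set of 6 may hold 0 or 1 calls at such shares, so the counts at 12 to 72 h do not set the members apart. The median log2 change over the 6 members was 1.504 at 1 h and 1.67 at 3 h, against -0.02 over all genes at both times. EM6 reached the filter's level in 1 of its 2 libraries of 0 h, and the other 5 members in both. In each of the 6 both 1 h libraries lay above both 0 h libraries, a pattern held by 24.0% of all genes tested. At 24 h against 3 h, 2 of 6 members were lower, as were 13.9% of all genes.

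**Figure D1:**
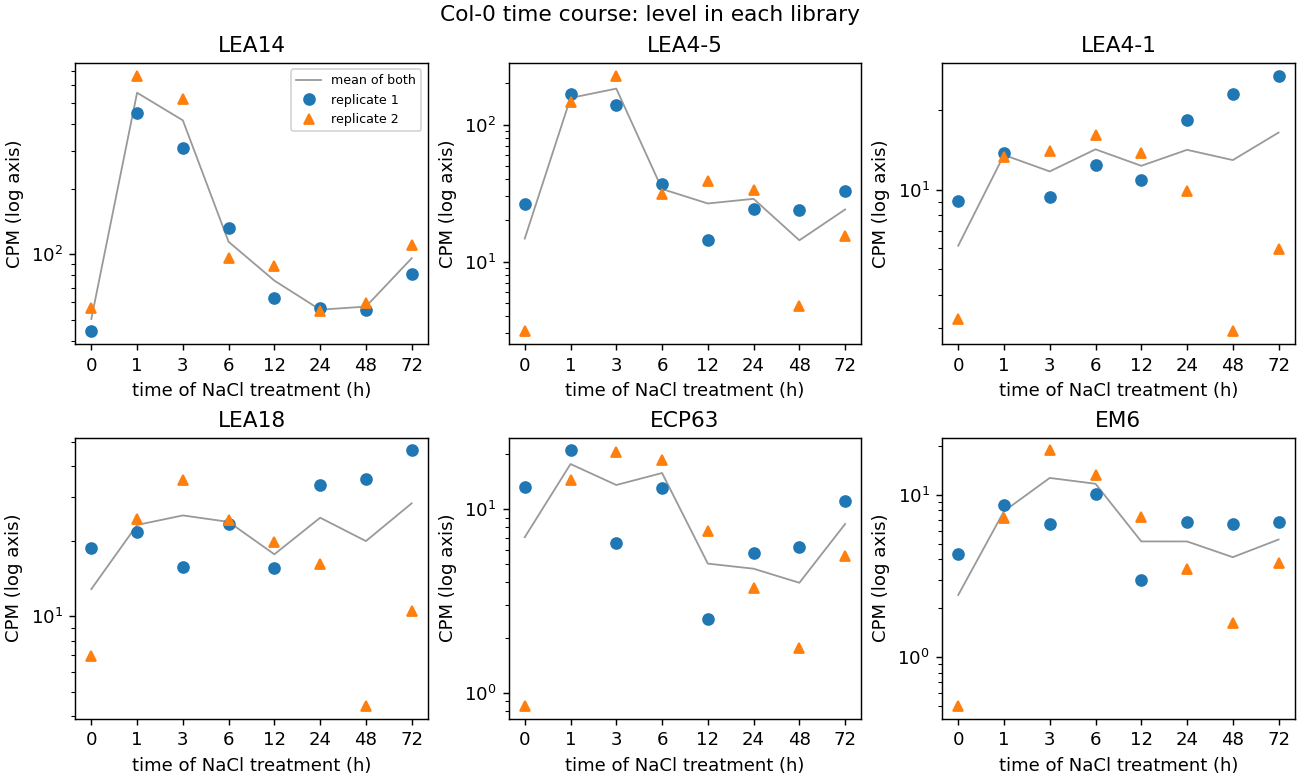
Level of each member in each library of the Col-0 time course, in CPM on a log axis (each panel with its own scale), against hours of NaCl treatment spaced by sample, with 1 point per library and a line through the mean of both. LEA14 and LEA4-5 peak at 1 and 3 h, and the 2 libraries of a time lie far apart for the seed-type genes, by up to 15.6-fold for ECP63 at 0 h.

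EM6, a small and very hydrophilic protein of the dry seed, had 4.32 and 0.50 CPM at 0 h, 8.66 and 7.17 CPM at 1 h, 6.64 and 18.7 CPM at 3 h, and 10.05 and 13.3 CPM at 6 h, then 1.63 to 7.32 CPM over the libraries of 12 to 72 h. All 6 libraries of 1 to 6 h exceeded both of 0 h. The difference at 3 h was 2.36 ± 0.84 (log2) and did not pass (edgeR adjusted p = 0.08132). Without 0 h replicate 1 it was 4.64 and passed (0.02789), as it did with no filter on low counts (0.04455).

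ECP63, an embryonic LEA protein, had 13.2 and 0.85 CPM at 0 h, 20.9 and 14.3 CPM at 1 h, 6.56 and 20.5 CPM at 3 h, 12.997 and 18.5 CPM at 6 h, 2.53 and 7.58 CPM at 12 h, 5.77 and 3.71 CPM at 24 h, 6.19 and 1.76 CPM at 48 h, and 11.04 and 5.56 CPM at 72 h. From 3 h on the libraries of every time overlap those of 0 h. Its difference was 1.31 ± 0.91 at 1 h and 0.92 ± 0.91 at 3 h (log2, edgeR adjusted p = 0.4308 and 0.5822). Without 0 h replicate 1, these became 4.37 and 3.97 and were called (0.03124 and 0.0473).

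LEA18 and LEA4-1 belong to the same LEA family as LEA4-5 but were not called at any time. LEA18 ranged from 4.38 to 46.3 CPM over the 16 libraries, with its lowest library at 48 h and its highest at 72 h. LEA4-1 ranged from 2.92 to 26.8 CPM, also with its lowest at 48 h and its highest at 72 h. In both genes those extremes are replicate 2 of 48 h and replicate 1 of 72 h, and the libraries of 48 h alone differed by 8.16-fold for LEA18 and 7.85-fold for LEA4-1. At 3 h the differences from 0 h were 0.97 ± 0.83 for LEA18 and 0.92 ± 0.81 for LEA4-1 (log2, edgeR adjusted p = 0.5166 and 0.5323).

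The times can also be put in order of mean level. For LEA14 the order was 1 h, 3 h, 6 h, 72 h, 12 h, 48 h, 24 h and 0 h, with libraries that overlap between neighbours except between 3 and 6 h and between 12 and 48 h. For LEA4-5 the highest means were at 3 h and then 1 h, whose libraries overlap each other. For ECP63 every neighbouring pair of times in the order of means had overlapping libraries.

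The spread between the 2 libraries of a time was large for the seed-type members and small for LEA14. Over the 8 times the higher library exceeded the lower by a median of 1.37-fold for LEA14, 1.67-fold for LEA4-1, 1.89-fold for LEA4-5, 2.15-fold for LEA18, 2.2-fold for EM6 and 2.49-fold for ECP63. Transcripts of seed storage and oil body proteins were present in the time course and also varied between replicates. Of 12 such markers 4 are in the table, and CRA1, a cruciferin storage protein, is the most abundant. Their summed level was 105 and 14.9 CPM at 0 h, 114 and 55.9 CPM at 1 h, 73.8 and 81.7 CPM at 3 h, 82.3 and 150.5 CPM at 6 h, 22.6 and 102 CPM at 12 h, 217 and 168 CPM at 24 h, 228 and 57.5 CPM at 48 h, and 82.8 and 49.0 CPM at 72 h. The libraries of a time differed by 1.11-fold (3 h) to 7.04-fold (0 h).

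ECP63, EM6 and LEA4-1 were each higher in the library with more storage transcript at 8 of 8 times, which held for 0.623% of 15403 genes tested other than the markers. LEA18 followed at 7 of 8 times, and 5.21% of genes did so at 7 or 8. LEA4-5 followed at 6 of 8 and LEA14 at 3 of 8. Of the 4 markers themselves, 2 followed their sum at 8 of 8 times, CRA1 among them, and the others at 5 and 4 of 8. Among 26 other LEA genes tested, 6 followed at 8 of 8 times, among them RAB18, a dehydrin induced by ABA. Of 6 ABA-related bZIP factors and seed regulators tested, 2 did so as well, ABI5 among them. This count was chosen after the values were seen, genes are not independent, and the part of seed storage transcripts in the time differences was not tested.

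**Figure D2:**
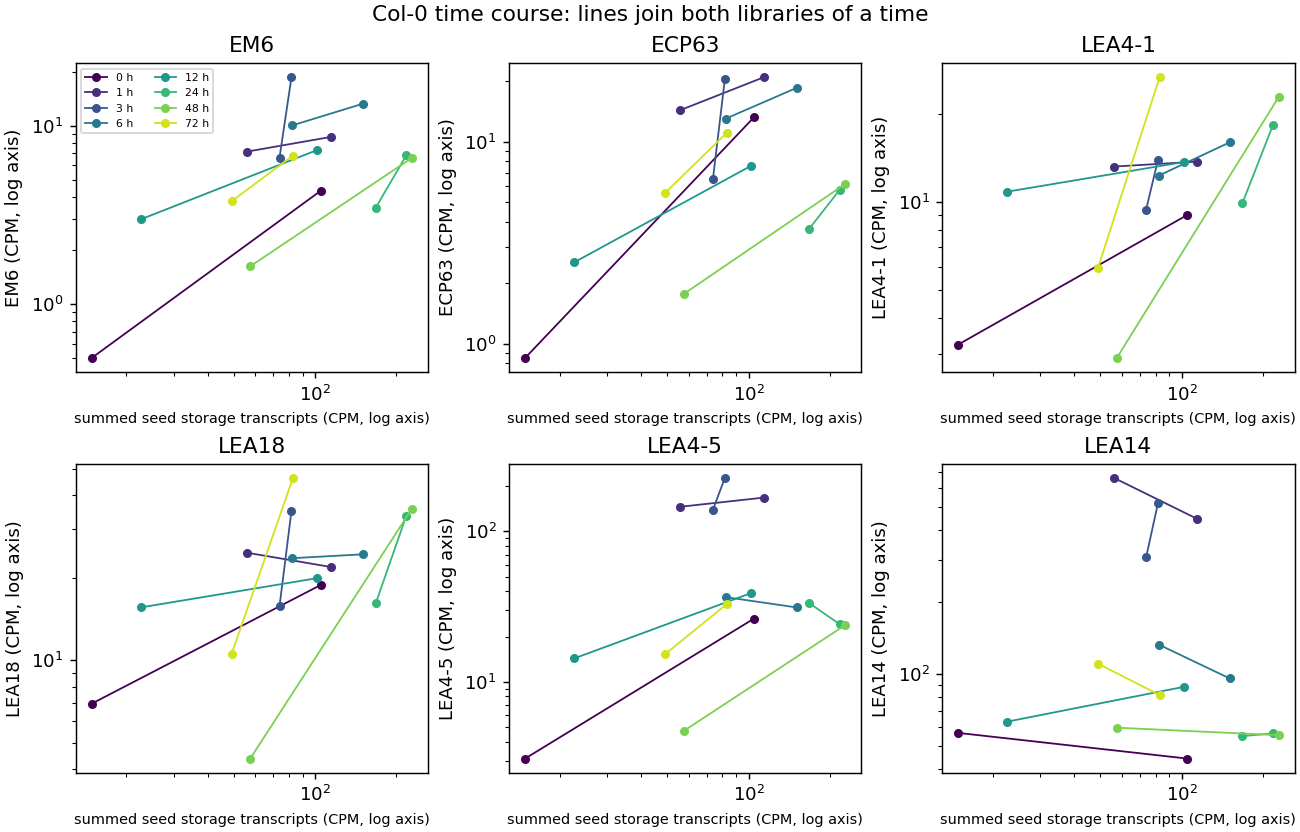
Level of each member (CPM, log axis) against the summed level of 4 seed storage and oil body transcripts (CPM, log axis) in the Col-0 time course, with a line joining the 2 libraries of each time, coloured by time. Lines for EM6, ECP63 and LEA4-1 slope upward at all 8 times, and those for LEA14 at 3 of 8.

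The mutant experiment asks how the same transcripts change at 2 and 24 h of salt in the labelled line and in Col-0. At 0 h most members were near the detection limit there. At 2 h 7 of 8 were called higher in Col-0 and 5 of 8 in the labelled line, where 5.76% and 3.61% of all genes were. Most members passed the filter on low counts only through later libraries, so these counts cannot be read against those shares. The 3 that would have passed at 0 h, LEA14, LEA4-5 and LEA18, were called in each line. The condition sheet gives each library a batch of 1 to 3, and values are listed in that order. LEA7, a LEA protein known for protecting enzymes and membranes on drying, had 0, 0.09 and 0 CPM at 0 h, 3.94, 6.05 and 9.85 CPM at 2 h and 0.49, 0.23 and 0.58 CPM at 24 h in the labelled line. In Col-0 it had no count in any 0 h library, then 4.17, 8.10 and 8.61 CPM at 2 h and 0.06, 0.19 and 0.64 CPM at 24 h. The 2 h libraries exceed all others in both lines. Over the group, 433 counts at 2 h against 0 at 0 h put LEA7 at least 212-fold higher in Col-0, with the floor set at 3 counts over the group (edgeR adjusted p = 7.97e-05). In the labelled line 462 counts at 2 h stood against 2 counts at 0 h, a ratio of 245 with a 95% exact interval of 67.4 to 2030 that covers counting error only (edgeR adjusted p = 0.0002199).

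LEA4-5 had 0.56, 0.31 and 0.62 CPM at 0 h, 23.5, 81.3 and 126 CPM at 2 h and 2.74, 1.32 and 1.75 CPM at 24 h in the labelled line. In Col-0 it had 0.48, 0.19 and 0.60 CPM at 0 h, 15.8, 81.3 and 166 CPM at 2 h and 2.90, 0.47 and 3.09 CPM at 24 h. Within 2 h the batches differ by several fold, in the same order in both lines, yet none overlaps 0 h. At 2 h it was higher by 7.25 ± 0.95 (log2) in the labelled line and 7.82 ± 0.98 in Col-0 (edgeR adjusted p = 0.0003792 and 0.0001764).

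LEA18 had 0.56, 0.66 and 0.52 CPM at 0 h, 7.49, 14.5 and 18.02 CPM at 2 h and 4.21, 1.21 and 3.35 CPM at 24 h in the labelled line. In Col-0 it had 0.62, 0.21 and 0.23 CPM at 0 h, 7.64, 11.7 and 21.9 CPM at 2 h and 2.83, 0.75 and 7.46 CPM at 24 h. It was higher at 2 h by 4.52 ± 0.73 (log2) in the labelled line and 5.35 ± 0.78 in Col-0 (edgeR adjusted p = 0.001944 and 0.0005822), although it did not pass at any time of the course.

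LEA14 was already abundant at 0 h, with 67.1, 60.8 and 98.3 CPM in the labelled line and 48.3, 46.2 and 108 CPM in Col-0. At 2 h it had 269, 461 and 766 CPM in the labelled line and 255, 443 and 757 CPM in Col-0, with differences from 0 h of 2.73 ± 0.54 and 2.85 ± 0.54 (log2, edgeR adjusted p = 0.006818 and 0.003895). At 24 h it had 102, 60.5 and 75.3 CPM in the labelled line and 105, 26.7 and 97.3 CPM in Col-0, which overlap the 0 h libraries in each line.

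EM6 had 0.67, 0.31 and 0.20 CPM at 0 h, 2.09, 2.98 and 2.96 CPM at 2 h and 0.70, 0.17 and 0.15 CPM at 24 h in the labelled line. In Col-0 it had 0.05, 0.23 and 0.23 CPM at 0 h, 1.60, 0.99 and 2.51 CPM at 2 h and 0.19, 0.05 and 0.27 CPM at 24 h. The 2 h libraries of each line exceed all its others, with differences of 2.82 ± 0.64 in the labelled line and 3.21 ± 0.68 in Col-0 (log2, edgeR adjusted p = 0.01559 and 0.00733). With batch as a block the edgeR adjusted p was 0.004404 in the labelled line and 0.00316 in Col-0. In fits without the block, the call in the labelled line ended without its 0 h batch 2, its 0 h batch 3 or its 2 h batch 3 (edgeR adjusted p = 0.07443, 0.08366 and 0.05248).

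EM1, the second EM gene, had no count in any 0 h library of either line. At 2 h it had 0.44, 0.57 and 0.47 CPM in the labelled line and 0.16, 0.59 and 0.89 CPM in Col-0, at least 11.7-fold and 16.6-fold higher against the floor. At 24 h it had 0.03, 0.29 and 0.73 CPM in the labelled line and 0, 0.28 and 0.75 CPM in Col-0, at least 7.06-fold and 10.8-fold higher. These bounds rest on counts summed over the group, 33 and 21 in the labelled line and 34 and 20 in Col-0, and leave out the spread between libraries. In Col-0 batch 1 EM1 had no count at 24 h, as at 0 h. By edgeR the adjusted p at 2 h was 0.06321 in the labelled line (0.008567 with batch as a block) and 0.03334 in Col-0 (0.005378 with the block). At 24 h it was 0.05107 in the labelled line (0.01179 with the block) and 0.03827 in Col-0 (0.009698 with the block). In fits without the block, the 2 h call in Col-0 ended without 5 of its 6 libraries taken singly. These were all but 2 h batch 1, with an edgeR adjusted p of up to 0.1171.

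LEA4-1 had 0.17, 0.31 and 0.23 CPM at 0 h, 1.26, 1.28 and 1.36 CPM at 2 h and 1.77, 0.57 and 1.55 CPM at 24 h in the labelled line. In Col-0 it had 0.10, 0.02 and 0.23 CPM at 0 h, 0.91, 0.36 and 1.82 CPM at 2 h and 0.39, 0.38 and 2.45 CPM at 24 h. Unlike LEA4-5, its level at 24 h overlapped that at 2 h in each line. At 2 h it was higher by 3.29 ± 0.89 (log2) in Col-0 (edgeR adjusted p = 0.02981, and 0.005294 with the batch block). The 2.43 ± 0.81 of the labelled line did not pass (0.09095). It passed only with the batch block (0.01547), with the 0 and 2 h libraries of that line alone (0.02134) or in DESeq2 (0.03061). In fits without the block, the Col-0 call ended without 0 h batch 1, 0 h batch 2, 2 h batch 1 or 2 h batch 3 (edgeR adjusted p = 0.08047, 0.1387, 0.05281 and 0.1492).

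ECP63 was the one member not called higher at 2 h in either line. It had 0.50, 1.27 and 0.23 CPM at 0 h, 0.68, 1.70 and 0.82 CPM at 2 h and 0.85, 0.46 and 0.49 CPM at 24 h in the labelled line. In Col-0 it had 0.24, 0.43 and 0.05 CPM at 0 h, 0.53, 0.27 and 0.39 CPM at 2 h and 0.19, 0.14 and 0.53 CPM at 24 h. All 3 times overlap in each line, and the 2 h differences were 0.68 ± 0.66 and 0.63 ± 0.74 (log2, edgeR adjusted p = 0.6167 and 0.6357).

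**Figure D3:**
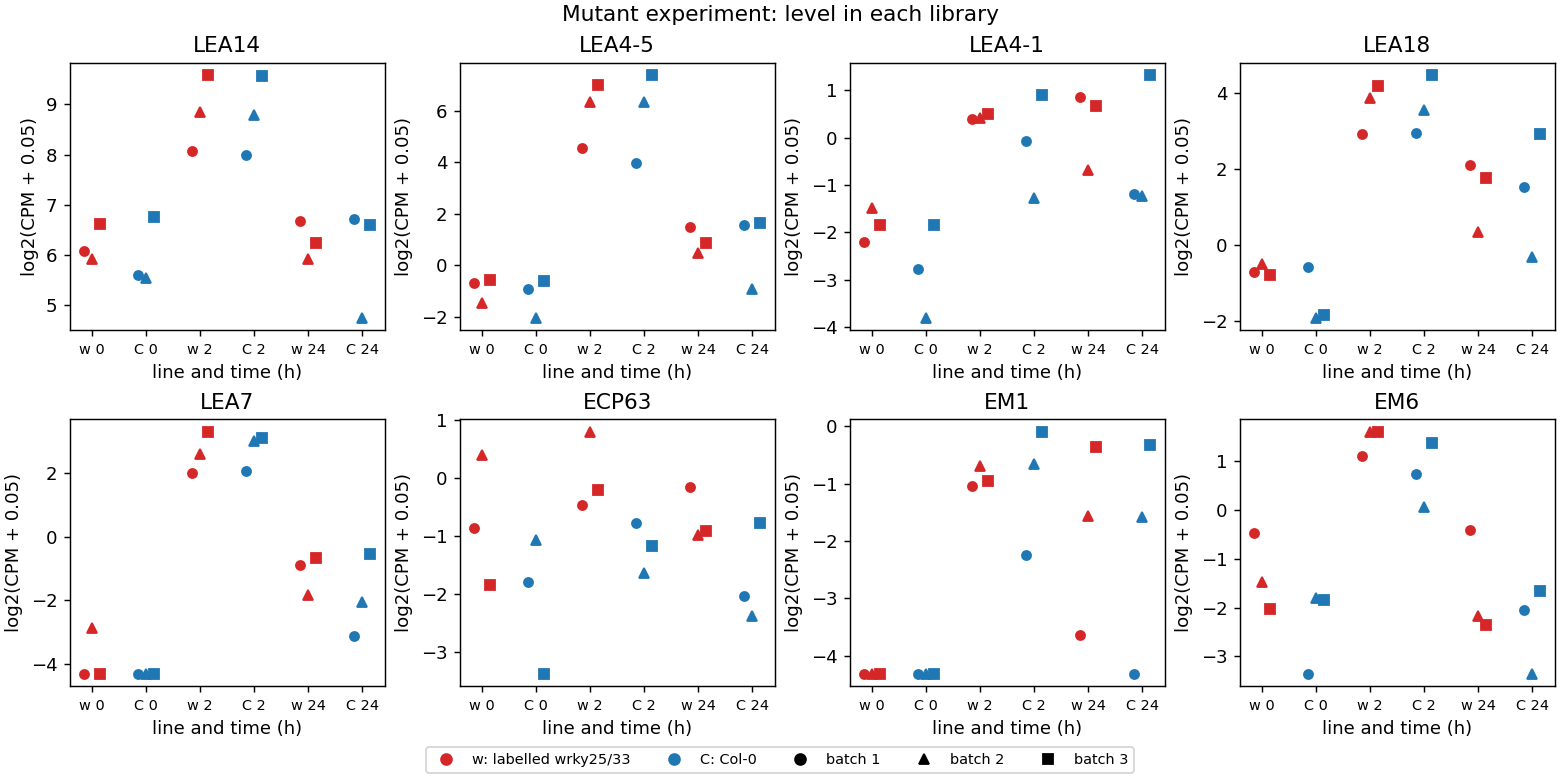
Level of each member in each library of the mutant experiment, as log2(CPM + 0.05) with a scale of its own in each panel, for the line labelled wrky25/33 (w, red) and Col-0 (C, blue) at 0, 2 and 24 h, with the symbol giving the batch. The 2 h libraries lie above 0 h in both lines for every member but ECP63, and the lines overlap at each time other than ECP63 at 2 h.

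Over all genes tested, 3.61% were higher at 2 h in the labelled line and 5.76% in Col-0. On their 0 h libraries alone, 3 of the 8 members (LEA14, LEA4-5 and LEA18) would have passed the filter. LEA7, LEA4-1, ECP63, EM1 and EM6 passed through later libraries, so their calls cannot be read against this share. LEA14, LEA4-5 and LEA18 were called in each line. The median log2 change over the 8 members, a description for the same reason, was 3.67 in the labelled line and 4.32 in Col-0 as fitted, or 3.18 and 3.67 with genes at 0 counts set at their bound, against -0.03 over all genes in each. With batch as a block 7 of 8 were called in each line, a description too, since the filter was the same. The share of all genes called in that fit is not given here.

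At 24 h fewer members were called. In the labelled line LEA7, LEA4-1 and LEA18 were still higher than at 0 h, and in Col-0 those 3 and EM1. With batch as a block the edgeR adjusted p for LEA7, LEA4-1 and LEA18 was 0.003926, 0.009784 and 0.01166 in the labelled line. In Col-0 it was 0.003673, 0.003854 and 0.002607, and 0.009698 for EM1. The fits below that leave out a library are without the block. LEA18 was higher by 2.35 ± 0.71 (log2) in the labelled line and 3.45 ± 0.76 in Col-0 (edgeR adjusted p = 0.03312 and 0.007034), and LEA4-1 by 2.45 ± 0.80 and 3.36 ± 0.90 (0.04471 and 0.01814). LEA7 rested on 32 counts in the labelled line, a ratio to 0 h of 16.1 with an exact 95% interval of 4.12 to 139 (0.02137). In Col-0 it rested on 17 counts, at least 9.17-fold higher for the summed counts (0.01191). Neither the interval nor the bound covers the spread between libraries. The share of all genes called higher was 10.1% in the labelled line and 10.4% in Col-0, and of the 3 members that would have passed the filter at 0 h, 1 (LEA18) was called in each line. None of these Col-0 calls held without 24 h batch 3, in which 4 of 4 members had their highest Col-0 level of that time, 1, that of LEA18, held without 0 h batch 2, and the count was 0 when the Col-0 libraries of 0 and 24 h alone were fitted. In that fit LEA7, LEA4-1 and EM1 did not pass the filter on low counts, and LEA18 had nearly the same value (3.41 ± 0.88, edgeR adjusted p = 0.08584). The EM1 call also ended without 0 h batch 1 or 0 h batch 3 (edgeR adjusted p = 0.06556 and 0.0777). In the labelled line the count was 0 without 0 h batch 1, 0 h batch 3 or 24 h batch 3, 1 (LEA7) without 0 h batch 2 and 1 (EM1 in place of the others) without 24 h batch 1.

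Between 2 and 24 h several members fell. LEA7, LEA4-5, LEA14 and EM6 were lower at 24 h than at 2 h in both lines, with all 24 h libraries below all 2 h libraries. The log2 changes were -3.89 ± 0.63 in the labelled line and -4.50 ± 0.67 in Col-0 for LEA7, -5.28 ± 0.84 and -5.37 ± 0.85 for LEA4-5, -2.66 ± 0.54 and -2.67 ± 0.54 for LEA14, and -2.86 ± 0.64 and -3.32 ± 0.72 for EM6 (edgeR adjusted p = 0.0007789 to 0.008135). LEA18 changed by -2.17 ± 0.63 in the labelled line (0.03416, and 0.008023 with the batch block) and by -1.90 ± 0.63 in Col-0 (0.05661, and 0.01095 with the batch block). In fits without the block, the LEA18 call in the labelled line ended without any 1 of 5 libraries, all but 2 h batch 1 (0.05897 to 0.1226). These are 5 of 8 members in the labelled line and 4 of 8 in Col-0, where 6.34% and 6.93% of all genes were called lower. LEA7, EM1 and EM6 would not have passed the filter without the 2 h libraries, and of the other 5 members 3 were called in the labelled line and 2 in Col-0. LEA4-1 instead had log2 changes of 0.01 ± 0.70 in the labelled line and 0.07 ± 0.73 in Col-0.

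Seed storage and oil body transcripts, all 12 of which are in this table, summed to 0.24 to 2.43 CPM in 16 of its 18 libraries. They reached 83.8 CPM in the 2 h batch 2 library of the labelled line and 12.7 CPM in its 24 h batch 1 library. The 2 h library also had the highest ECP63 and EM6 levels of the experiment. EM6 was nearly as high in batch 3 of the same group, whose storage transcripts summed to 1.71 CPM. ECP63 was likewise highest among the 0 h libraries in batch 2 of the labelled line, where they summed to 1.93 CPM. The 24 h library had the highest level of its group for 6 of 8 members, all but LEA7 and EM1. Without both libraries rich in storage transcripts, 5 of 8 members were still called at 2 h in the labelled line, and 0 instead of 3 at 24 h. The adjusted p at 24 h was then 0.08521 for LEA7, 0.1683 for LEA4-1 and 0.1485 for LEA18 (edgeR). The part of seed storage transcripts in the 24 h result was otherwise not tested.

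No member was called different between the lines. At 0, 2 and 24 h, 0 of 8 members passed in edgeR and in DESeq2, with 0 at an unadjusted p below 0.05, and 0.155%, 0.176% and 0.181% of all genes tested passed in edgeR. At 2 h LEA14 differed by 0.04 ± 0.51, LEA4-5 by -0.19 ± 0.68, LEA18 by -0.04 ± 0.60, LEA7 by -0.07 ± 0.53 and EM6 by 0.65 ± 0.57 (log2, labelled line over Col-0, edgeR adjusted p = 0.9997 for each). With batch as a block these were 0.05 ± 0.39, -0.09 ± 0.55, 0.03 ± 0.49, -0.11 ± 0.37 and 0.71 ± 0.52 in that order. In that fit too 0 of 8 members passed at 0, 2 and 24 h. Within batches 1, 2 and 3 the LEA14 difference at 2 h was 0.07, 0.06 and 0.02, and that of LEA4-5 was 0.57, 0.00 and -0.39. For ECP63 the 3 libraries of the labelled line at 2 h lay above the 3 of Col-0, which held for 3.92% of all genes, and the difference of 1.41 ± 0.70 did not pass (edgeR adjusted p = 0.9997). Within batches the ECP63 difference at 2 h was 0.33, 2.56 and 1.00, largest in the batch whose labelled library carried the most seed storage transcript. The fitted 2 h difference was 0.91 without both libraries of the labelled line that carried such transcripts. At 0 h, where these transcripts summed to 0.95 to 2.43 CPM, the ECP63 differences within batches were 1.02, 1.57 and 1.83. At 24 h they were 1.95, 1.56 and -0.13. The part of seed storage transcripts in the ECP63 differences was not tested.

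By the test of the interaction, the change from 0 h was called different between the lines for 0 of 8 members at 2 h and 0 of 8 at 24 h in edgeR and in DESeq2, with 0 at an unadjusted p below 0.05. For all 19316 genes the count was 0 in edgeR as well, or 0.0%. At 2 h the interaction was -0.12 ± 0.72 for LEA14, -0.56 ± 1.27 for LEA4-5, -0.83 ± 1.01 for LEA18 and -0.39 ± 0.88 for EM6 (log2). With batch as a block they were -0.18 ± 0.56, -0.39 ± 1.27, -0.70 ± 0.94 and -0.20 ± 0.84 in that order, with 0 of 8 members called at either time. The errors of both fits leave room for differences of more than 1 log2 unit in most members, and WRKY25 and WRKY33 levels did not separate the lines.

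**Figure D4:**
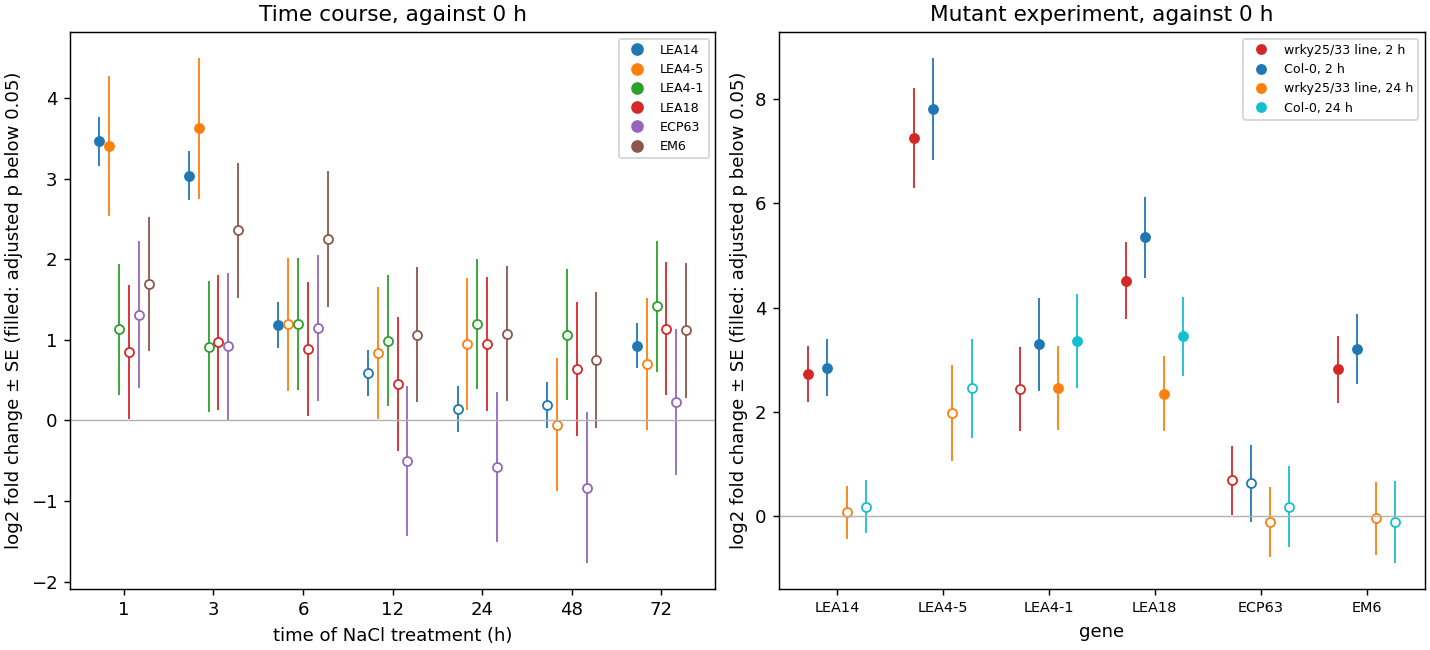
Log2 fold change against 0 h with its standard error from edgeR for the 6 members measured in both experiments, by time in the Col-0 course (left, by hour) and at 2 and 24 h in the line labelled wrky25/33 and in Col-0 (right), with filled points for an adjusted p below 0.05. LEA14 and LEA4-5 are filled at 1 and 3 h on the left, and all members but ECP63 are filled at 2 h in Col-0 on the right.

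The tables of both experiments were normalised separately, and their 0 h levels differ for the seed-type members. At 0 h Col-0 had 18.8 and 6.94 CPM of LEA18 in the time course, against 0.62, 0.21 and 0.23 CPM in the mutant experiment. ECP63 had 13.2 and 0.85 CPM against 0.24, 0.43 and 0.05 CPM, LEA4-5 26.3 and 3.10 CPM against 0.48, 0.19 and 0.60 CPM, and EM6 4.32 and 0.50 CPM against 0.05, 0.23 and 0.23 CPM. LEA14 overlapped, with 44.1 and 56.6 CPM against 48.3, 46.2 and 108 CPM. The time course also carried more seed storage transcript, at 14.9 to 228 CPM in its libraries, against 0.24 to 83.8 CPM in the mutant experiment. The difference between experiments was not tested, since their libraries were made and counted apart.

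Part of the wider LEA family rose at the early times as well. Of 43 other LEA genes listed, 26 were tested in the time course, with 7 higher and 0 lower at 1 h (8.74% and 5.45% of all genes tested) and 9 higher and 1 lower at 3 h (8.5% and 6.54%). At 6 h 3 were higher and 1 lower (4.26% and 2.24%), and 12 h had 1 of each (2.6% and 1.64%). At 24 h 4 were higher and 1 lower (6.45% and 6.15%). At 48 h 2 were higher and 3 lower (10.4% and 11.6%), while 72 h had 2 of each (12.3% and 12.5%). The counts at 48 and 72 h did not exceed the shares over all genes. The median log2 change was 1.06 at 1 h, 1.24 at 3 h and -0.08 at 48 h, against -0.02 over all genes at 1 and 3 h. COR15A, a chloroplast protein of cold acclimation, had 289 and 387 CPM at 3 h, against 0.13 and 0.30 CPM at 0 h, and its relative COR15B had 77.8 and 94.4 CPM against 0.48 and 0.45 CPM. The log2 differences were 10.61 ± 1.32 and 7.51 ± 0.74 (edgeR adjusted p = 0.000211 and 4.615e-05). AT2G44060 rose by 0.60 ± 0.16, and AT2G03850 was lower at 3 h with a log2 change of -1.21 ± 0.32 (0.02619 and 0.02517).

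In the mutant experiment 28 other LEA genes were tested. At 2 h 11 were higher in the labelled line and 12 in Col-0 (3.61% and 5.76% of all genes tested), with 0 lower in each. At 24 h 5 were higher and 1 lower in the labelled line (10.1% and 8.43% of all genes). In Col-0 7 were higher and 1 lower (10.4% and 8.34%). At 24 h against 2 h, 11 were lower and 0 higher in the labelled line (6.34% and 6.0%), and 9 lower and 1 higher in Col-0 (6.93% and 6.41%). Which of the 28 passed the filter only through later libraries was not examined. COR15A was lower at 24 h than at 0 h in both lines, with log2 changes of -3.03 ± 0.91 in the labelled line and -2.87 ± 0.91 in Col-0 (edgeR adjusted p = 0.03212 and 0.03793). None of the 28 differed between the lines or in the interaction by edgeR.

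The ABA-related bZIP factors and seed regulators were called at the early times of the course in part. Of 12 listed, 6 were tested in the time course, with 3 higher at 1 h and 3 at 3 h (8.74% and 8.5% of all genes tested) and none lower. None was called from 6 to 72 h against 0 h, where 2.6% to 12.3% of all genes were higher at a time. At such shares 6 genes may hold 0 calls. ABI5 had 11.3 and 18.98 CPM at 3 h, against 8.99 and 5.74 CPM at 0 h, and ABF2, a bZIP factor of the ABA response, had 73.4 and 71.1 CPM against 27.1 and 21.4 CPM. ABF4, a related factor, was higher at 3 h by 0.67 ± 0.18 (log2, edgeR adjusted p = 0.02671). In the mutant experiment ABI5 had 6.03, 8.45 and 12.96 CPM at 2 h in the labelled line, against 2.24, 1.80 and 2.40 CPM at 0 h, and 6.79, 7.38 and 13.6 CPM in Col-0, against 2.52, 3.13 and 2.88 CPM at 0 h. ABI3 had at most 0.44 CPM in any library there and did not pass the filter, and OLEO1, an oil body protein, had at most 0.76 CPM.

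Over the 14 group means of both experiments, on log2(CPM + 1) centred within each experiment, the genes most like each member were named as a description. LEA14 was most like ERD10, a dehydrin (Pearson's r = 0.983), and EM6 most like AT3G17520, another listed LEA gene (r = 0.964). The highest r was 0.976 for LEA4-5, 0.934 for LEA18, 0.913 for ECP63 and 0.901 for LEA4-1, each with a gene outside the lists. Group means of an experiment share its 0 h libraries, plants and depth, so these values describe shape only.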

How the data were processed

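Values for the time course are expected counts per gene and those of the mutant experiment are counts per gene, both deposited by the authors. Of tools and builds, STAR and TAIR10 are listed in the submitters' processing notes; versions and annotation were not given in the sources used here. In the time course 1.42% of values, in 973 genes and in 0 members, were not whole and were rounded. Counts for either strand were used in the mutant experiment, so overlapping or antisense genes cannot be told apart, and reads shared by near-identical genes may be split. Ambiguous reads came to 5.27% to 6.54% of the mutant libraries and were left out of depth.

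Counts were scaled by TMM after edgeR's filter on low expression and tested with edgeR 4.0.16 (R 4.3.3), 1 coefficient per group over all 16 or all 18 libraries of an experiment, with adjustment over all genes tested and a threshold of 0.05. SE is the log2 fold change divided by the square root of F. The code was tested on simulated data. Alternatives were DESeq2 1.42.0, its size factors, no filter, the groups of the contrast alone, the replicate number as a block, and each library left out. Batch numbers of the condition sheet pair the mutant libraries: 45 of 45 correlations of deviations between same-numbered libraries were above 0.1 (0.25 to 0.823). No 2 libraries were identical.

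The members, the other gene lists and the named genes were chosen with earlier results of these data known. Of the other lists, the genes named are the 2 highest and 2 lowest called at 3 h in the course, with ABI3, ABI5, CRA1 and OLEO1; gene names come from these lists. RAB18 was named after its values were seen. Sequences of the members are not printed here.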

Additional observations from a re-analysis of the deposited data

How the results depend on the processing

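Of the members' contrasts, 79 were followed under the alternatives, 36 of them called. The 56 not followed were never called and lay within 1 SE of 0, other than for LEA7. Its difference between the lines at 0 h (2.64 ± 1.75, log2) was left out by choice. So were its interactions at 2 and 24 h (-2.71 ± 1.80 and -2.10 ± 1.64). DESeq2's size factors changed no followed call. No filter on low counts added 2 calls, DESeq2 5 and the replicate block 4, and all 4 of the block are in the mutant experiment and stand beside their results. The replicate block changed no other call, and in the time course it left 2 members higher at 1 h and 2 at 3 h. There the replicate numbers did not pair the libraries: 24 of 56 correlations were above 0.1 (-0.272 to 0.714).

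With the groups of the contrast alone, the count of members called was 1 (not 2) at 1 h, 1 (not 2) at 3 h and 2 (not 1) at 6 h of the course, and 0 (not 4) in Col-0 at 24 h, where LEA7, LEA4-1 and EM1 did not pass the filter of the smaller fit. Without both libraries of the labelled line that carried seed storage transcripts, an alternative chosen after seeing the data, the count at 24 h was 0 (not 3), and the EM6 difference between the lines at 24 h was -0.0501 (not 1.12, log2). With 1 library left out, counts ranged from 1 to 3 at 1 h, 1 to 4 at 3 h, 0 to 0 at 6 h, 0 to 1 at 72 h and 1 to 2 at 24 h against 3 h of the course. They ranged from 0 to 5 in Col-0 and 0 to 3 in the labelled line at 24 h.

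With 1 library left out, some uncalled log2 differences from 0 h changed sign: ECP63 at 3 h (-0.0991 to 3.97), LEA4-5 at 12 h (-0.0501 to 3.09), LEA4-1 at 48 h (-1.08 to 1.99) and 72 h (-0.0523 to 2.34), and LEA18 at 72 h (-0.297 to 2.04) in the course. The EM6 difference between the lines at 24 h ran from -0.0478 to 1.66. With 1 library left at a course time, that library is assumed to vary like the other groups. The cause was not tested. Depth limits EM1 and LEA7, whose 0 h libraries held 0 to 2 counts in all.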
